A study of Mus musculus with 4 samples.

Results

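Glycolysis turns glucose into pyruvate and, through lactate dehydrogenase, into lactate. The enzymes described here are those of 10 genes, *Hk1*, *Hk2*, *Gpi1*, *Pfkl*, *Pfkp*, *Aldoa*, *Tpi1*, *Gapdh*, *Pgk1* and *Ldha*, which were read from every array probe that carries 1 of these names. The array holds 25 such probes among 55681 probes and 36406 gene names, and all 25 probes of all 10 genes passed the filter on dim signals, as did 27042 probes of 20190 genes in all.

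Hexokinases phosphorylate glucose on entry into the cell, phosphofructokinase commits it to the pathway, aldolase and triosephosphate isomerase split and interconvert the sugar phosphates, and the lower enzymes recover ATP and NADH. Lactate dehydrogenase turns NADH back into NAD+, the substrate that poly(ADP-ribose) polymerases (PARPs) also consume. Neural progenitors are known for a high rate of glycolysis, and the tumour suppressor p53 is known to act on several genes of glucose metabolism.

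The cells were neural stem/progenitor cells (NSPCs) of mouse embryos at embryonic day 13.5, grown with B-27, EGF and FGF-basic. They were either wild-type or *Trp53*-/-, that is, homozygous for a disrupted p53 gene. The study's methods name Slc:ICR embryos for its NSPCs and give no strain for the *Trp53* line. A difference in strain could therefore not be told apart from one in genotype. On each of 4 arrays the RNA of NSPCs given 20 μM PJ34, a PARP inhibitor, carried Cy5 and the RNA of untreated control NSPCs of the same genotype carried Cy3. Each genotype had 2 arrays from RNA prepared independently, the dyes were never exchanged, and the line of *Trp53*-/- mice came from heterozygotes of a mouse bank. The labels do not give the time in PJ34, and they do not say whether the 2 RNA preparations came from separate embryos. The spread between replicates may therefore be partly technical, although the *Trp53*-/- PJ34 preparations differed in the sex-linked genes given below.

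Some features of the arrays touch every value below. The *Trp53* probe gave control log2 intensities of 8.28 and 8.51 in wild-type and 7.56 and 7.82 in *Trp53*-/-, a difference of -0.71 that did not pass the test (limma with Storey's *q* = 0.0585), and whether the probe lies in the disrupted part is not given in the sources used here. *Trp53*-/- replicate 2 stood apart in sex-linked genes, with log2 ratios of PJ34 over control of 4.22 for *Eif2s3y*, 3.12 for *Ddx3y* and -1.39 for *Xist*, so its PJ34 and control RNA differed in sex-linked transcripts. In the PJ34 channel of *Trp53*-/-, *Eif2s3y* read 5.81 on replicate 1 and 10.46 on replicate 2. The treated and control cells of replicate 2 were therefore not matched, and its ratios may hold differences between cultures beside the response to PJ34. The control RNA of the genotypes differed in sex-linked transcripts too: *Eif2s3y* had control log2 intensities of 8.96 and 8.47 in wild-type and 6.01 and 6.24 in *Trp53*-/-, and *Ddx3y* had 8.25 and 8.06 against 6.04 and 6.17, with both *Trp53*-/- levels not well above background (limma with Storey's *q* = 0.0093 and 0.0092). All 8 NSPC markers were above background in the control channel of all 4 arrays, and none of 4 fibroblast and pericyte or 3 red blood cell markers passed the filter. The summed control intensity of 6 oligodendrocyte markers was between 2175 and 3538 in wild-type and between 9326 and 9999 in *Trp53*-/-. For 5 astrocyte markers the sums were between 1529 and 3160 in wild-type and between 3080 and 3108 in *Trp53*-/-, for 6 neuron markers between 7646 and 10015 and between 6665 and 6950, for 2 of 5 microglia and macrophage markers between 5864 and 6997 and between 3629 and 4248, and for 2 of 4 endothelial markers between 7981 and 8402 and between 3097 and 3479. The microglial genes *Aif1*, *Cx3cr1* and *Tyrobp* did not pass the filter. In untreated cells 3 of 6 oligodendrocyte, 3 of 5 astrocyte and 2 of 6 neuron markers passed as higher in *Trp53*-/-. Lower were 1 neuron, 1 endothelial and 1 NSPC marker, where 3.38% of all genes passed as higher and 3.27% as lower. The sums and the single markers of neurons and astrocytes therefore did not move alike. The part of other cell types and of sex-linked differences in the results was not tested.

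The probes printed here are 60 bases long and lie in coding sequence. They are, in lower case throughout, the second probe of *Tpi1*, the enzyme whose probes fell in both genotypes, at chr6:124761923-124761982 (mm9, minus strand); a coding probe of *Hk1* at chr10:61732717-61732776 (minus strand), since the *Hk1* probes moved apart; and 2 coding probes of *Ldha* at chr7:54103010-54103069 and chr7:54107294-54107353 (plus strand), which fell short of the threshold together.
Tpi1 A_55_P1988424: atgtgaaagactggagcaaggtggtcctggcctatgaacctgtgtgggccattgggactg
Hk1 A_55_P2118843: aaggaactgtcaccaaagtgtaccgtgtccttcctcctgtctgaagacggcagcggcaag
Ldha A_55_P2141876: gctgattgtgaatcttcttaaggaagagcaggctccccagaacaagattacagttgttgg
Ldha A_55_P2141878: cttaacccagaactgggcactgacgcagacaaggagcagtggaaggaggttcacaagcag

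The stretch of 250 bases before the start of *Hk2* and of *Tpi1* is shown because these were the 2 enzymes lower with PJ34 in wild-type. Both come from RefSeq promoters (GRCm38.p6, minus strand), *Hk2* at chr6:82774455-82774704 and *Tpi1* at chr6:124814159-124814408, and capitals mark the letters ACGTG or its reverse complement CACGT, the core bound by hypoxia-inducible factors and part of the E-box CACGTG.
Hk2 promoter: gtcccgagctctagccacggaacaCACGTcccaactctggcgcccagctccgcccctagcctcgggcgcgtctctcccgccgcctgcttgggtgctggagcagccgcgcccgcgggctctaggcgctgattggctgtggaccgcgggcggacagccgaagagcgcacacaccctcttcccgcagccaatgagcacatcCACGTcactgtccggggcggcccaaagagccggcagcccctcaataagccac
Tpi1 promoter: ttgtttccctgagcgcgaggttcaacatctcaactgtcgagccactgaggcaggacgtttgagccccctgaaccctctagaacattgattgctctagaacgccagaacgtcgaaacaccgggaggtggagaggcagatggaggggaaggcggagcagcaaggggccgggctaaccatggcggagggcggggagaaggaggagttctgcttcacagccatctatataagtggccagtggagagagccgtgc
*Hk2* held 2 matches, the nearest 52 bases before the start, and *Tpi1* held none. Over both strands, 4 of the 10 genes (*Hk2*, *Aldoa*, *Pgk1* and *Ldha*) had a match in at least 1 promoter, and ACGTG was found in 16.6% of 32851 promoter stretches of this length, or for 18.5% of 27025 genes with any promoter counted. The longer CACGTG, which contains ACGTG, was found in 6.0% of the stretches, and of the 10 genes only *Ldha* held it. These matches are letters only, and no binding was measured.

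After loess, few of the 10 enzymes passed the test with PJ34, and none passed 2-fold. With 2 arrays a genotype, a gene that did not pass may still have changed. With a gene read from its brightest probe, *Hk2* and *Tpi1* fell in wild-type NSPCs, and *Tpi1* fell and *Gapdh* rose in *Trp53*-/- NSPCs (limma, *p* and Storey's *q* under 0.05 with no fold limit). In wild-type, 0 of 10 genes were higher and 2 lower, where 13.2% and 10.8% of all 20190 genes were (24.0% in either direction), and 3 of the 10 had an unadjusted *p* under the threshold. For *Trp53*-/-, 1 was higher and 1 lower, against 12.3% and 10.2% of all genes (22.5% in either direction). The share of members that passed was therefore near that of all genes in each genotype, and the median log2 ratio of the 10 was -0.14 in wild-type and -0.06 in *Trp53*-/-, where the median of all genes was 0.03 in each. Past 2-fold, 0 of 10 were found in either genotype, against 0.500% of all genes in wild-type and 0.362% in *Trp53*-/-. Counted by probe, 0 of 25 were higher and 3 lower in wild-type (12.3% and 10.4% of all 27042 probes, 22.8% in either direction), and 2 were higher and 2 lower in *Trp53*-/- (12.0% and 9.68%, 21.7% in either direction). Of the 2 higher probes, 1 is the dim *Pfkp* probe described below, which passed the filter only through the channel where it was high.

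**Figure D1:**
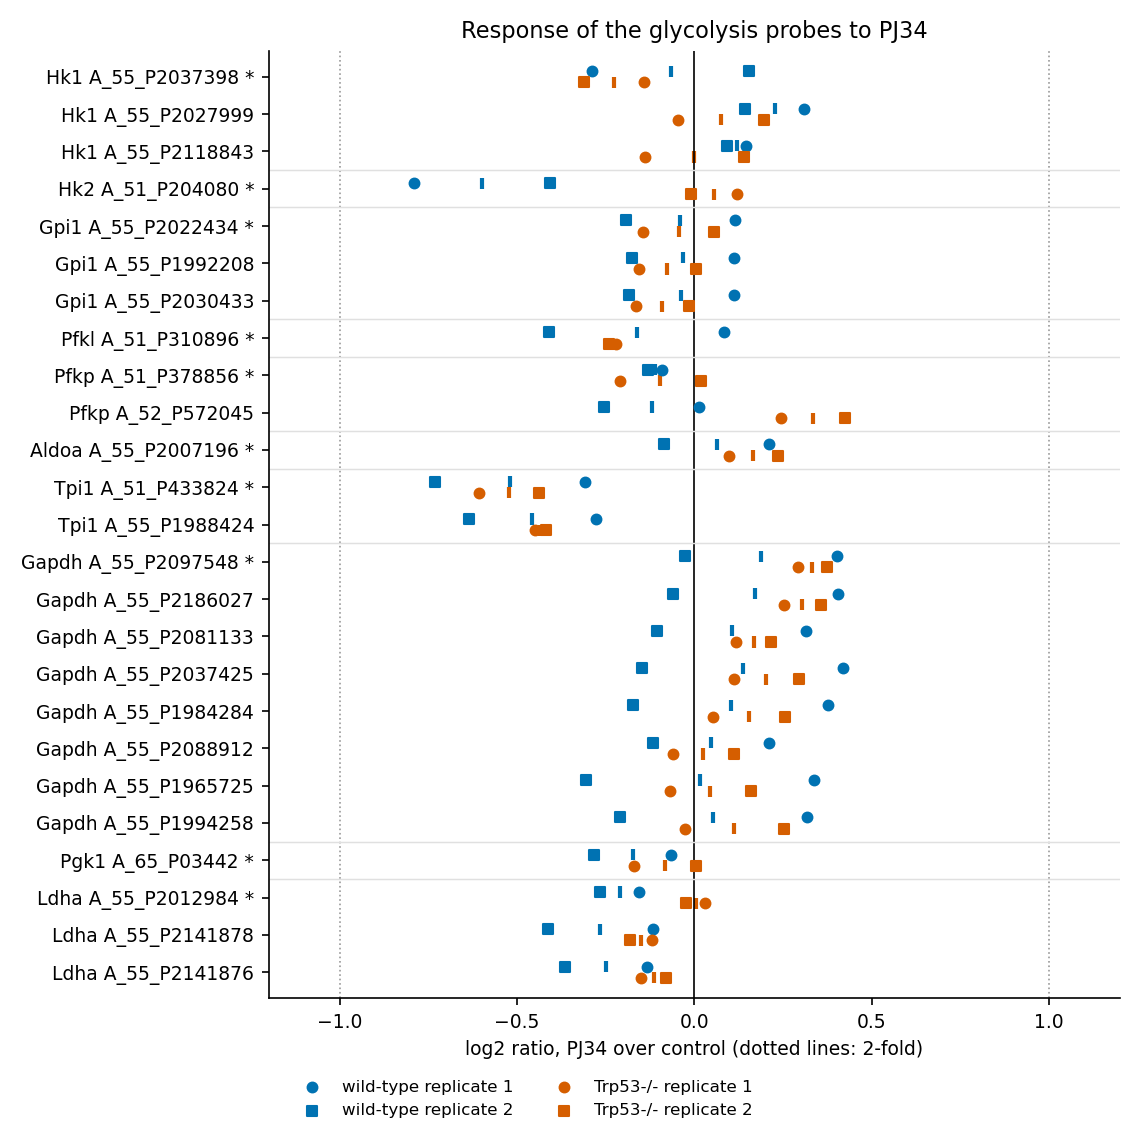
Log2 ratio of PJ34 over control after loess (x axis) for each of the 25 probes of the 10 enzymes, with 1 point per array, blue for wild-type and orange for Trp53-/-, short bars for the mean of the 2 arrays, and an asterisk at the probe read for the gene counts. Every point lies within 2-fold, both Tpi1 probes are below 0 on all 4 arrays, and Hk2 lies at -0.79 and -0.41 on the wild-type arrays and near 0 on the Trp53-/- arrays.

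The direction of these ratios depends on how the arrays were normalized. Loess, which removes the dependence of the ratio on brightness, brought the median ratio of all probes to 0.03 in both genotypes. With plain centring of each array on the median of its spots, the median of the kept probes was 0.42 in wild-type and 0.57 in *Trp53*-/-. *Tpi1* then read 0.20 and 0.52, which is -0.22 and -0.05 relative to the median of all kept probes, and *Hk2* read -0.20 and 0.68, which is -0.62 and 0.11 relative to it. Relative to that median the brightest probes of the other genes read, in wild-type and *Trp53*-/-, 0.62 and 0.97 for *Gapdh* and 0.47 and 0.78 for *Aldoa*. They read 0.35 and 0.34 for *Hk1*, 0.34 and 0.52 for *Gpi1*, 0.19 and 0.61 for *Ldha*, and 0.17 and 0.42 for *Pgk1*. *Pfkl* read -0.04 and -0.03, and *Pfkp* -0.10 and -0.13. Under that centring 7 of the 10 genes passed as higher in wild-type and 10 in *Trp53*-/-, and none as lower. Some passed 2-fold there, among them *Gapdh* at 1.04 in wild-type and *Aldoa* at 1.35 in *Trp53*-/-. Of all 27042 probes 15125 and 17669 passed in either direction, so every direction below is given after loess.

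Of the hexokinases, which catalyse the first step, *Hk2* is the inducible, mitochondria-bound form known for its high levels in growing cells. Its probe, A_51_P204080 at chr6:82675056-82675115, gave log2 ratios of -0.79 and -0.41 in wild-type and 0.12 and -0.01 in *Trp53*-/-. Both wild-type arrays lay below both *Trp53*-/- arrays. The wild-type mean was -0.60 ± 0.11 (mean of 2 arrays ± moderated SE, limma with Storey's *q* = 0.0024), a 1.51-fold decrease, and the *Trp53*-/- mean was 0.06 ± 0.11 (*q* = 0.38). limma takes this SE from a spread shared by all 4 arrays and moderated across probes, so it is the same for both genotypes. The SD between the 2 arrays of *Hk2* was 0.27 in wild-type and 0.09 in *Trp53*-/-. The difference between the genotypes, wild-type minus *Trp53*-/-, was -0.65 (95% interval -0.99 to -0.32) and did not pass the adjustment over all probes (Storey's *q* = 0.061). None of the 10 genes passed in this difference in either direction, where 1.62% of all genes did, 1.22% higher and 0.406% lower. Past 2-fold, 0 of 10 genes were found in this difference, against 0.461% of all genes. By probe 0 of 25 passed, against 1.46% of all probes, 1.11% higher and 0.355% lower. *Hk2* was the 1 gene of the 10 with an unadjusted *p* under the threshold. The difference stood at the edge of the threshold: *q* fell below it with no filter on dim probes, with a stricter filter and without wild-type replicate 2 (-0.85, *q* = 0.013). Without wild-type replicate 1 the wild-type value was -0.41 (*q* = 0.054) and the difference -0.46 (*q* = 0.20).

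The control level of *Hk2* itself varied between the wild-type cultures. Its control log2 intensities were 9.03 and 7.69 in wild-type and 8.13 and 8.48 in *Trp53*-/-. The *Trp53*-/- arrays lay between the wild-type ones, which differed more than 2-fold from each other. The untreated difference, *Trp53*-/- minus wild-type, was -0.05 (95% interval -1.09 to 0.98), and it read 0.62 without wild-type replicate 1 and -0.73 without wild-type replicate 2.

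*Hk1*, the hexokinase of most tissues and of brain, was read by 3 probes that disagreed. The brightest, A_55_P2037398, carries no RefSeq transcript in the files, and its log2 ratios were -0.29 and 0.15 in wild-type and -0.14 and -0.31 in *Trp53*-/-. The other probes, A_55_P2027999 and the coding probe shown above, had means of 0.23 and 0.12 in wild-type and 0.07 and 0.00 in *Trp53*-/-. On both of them both wild-type arrays were above 0 (0.31 and 0.14, and 0.15 and 0.09), while the *Trp53*-/- arrays lay on both sides of it. No *Hk1* probe passed in either genotype (Storey's *q* between 0.077 and 0.50).

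*Gpi1*, which isomerizes glucose 6-phosphate to fructose 6-phosphate, had 3 probes placed within a few bases of each other, and they share runs of 40 to 47 bases. They are therefore 1 measurement taken 3 times. The means were between -0.04 and -0.03 in wild-type and between -0.09 and -0.04 in *Trp53*-/-. The wild-type arrays fell on both sides of 0, with 0.11 on replicate 1 and between -0.19 and -0.18 on replicate 2.

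Phosphofructokinase, the committing step, was represented by the liver form *Pfkl* and the platelet form *Pfkp*. *Pfkl* gave log2 ratios of 0.08 and -0.41 in the wild-type arrays and -0.22 and -0.24 in *Trp53*-/-, and neither mean passed (-0.16 with *q* = 0.20 and -0.23 with *q* = 0.11, limma with Storey's *q*). The brighter *Pfkp* probe read -0.09 and -0.13 in wild-type and -0.21 and 0.02 in *Trp53*-/-. The dimmer one, A_52_P572045, read 0.01 and -0.25 in wild-type and 0.24 and 0.43 in *Trp53*-/-. Its *Trp53*-/- mean was 0.33 (limma with Storey's *q* = 0.026), at least 1.21-fold higher with the control side set at the lowest well measured signal, since neither *Trp53*-/- array had its control signal well above background. Only 1 of the 2 wild-type arrays had a well measured signal in each channel, so the probe entered the test only through the PJ34 channel of *Trp53*-/-, where it was high, and its call is no evidence of a rise. The difference between genotypes was -0.45 and did not pass (*q* = 0.14), and without *Trp53*-/- replicate 2 the *Trp53*-/- value was 0.24 (*q* = 0.29).

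*Aldoa*, the main aldolase of muscle and of many growing cells, gave log2 ratios of 0.21 and -0.09 on the wild-type arrays and 0.10 and 0.24 in *Trp53*-/-. Neither mean passed, at 0.06 (95% interval -0.16 to 0.29) and 0.17 (95% interval -0.06 to 0.39).

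*Tpi1*, triosephosphate isomerase, interconverts the triose phosphates made by aldolase, and it was the 1 enzyme of the 10 that fell in both genotypes. Its brightest probe, A_51_P433824 at chr6:124760947-124761006, gave log2 ratios of -0.31 and -0.73 in wild-type and -0.61 and -0.44 in *Trp53*-/-. All 4 arrays were below 0, and the genotypes overlapped fully. PJ34 RNA carried Cy5 on all 4 arrays. For this and any other probe that moved alike in both genotypes, a dye bias of the probe therefore cannot be told apart from a response. The means were -0.52 ± 0.11 in both (means of 2 arrays each ± moderated SE, limma with Storey's *q* = 0.0059 in wild-type and 0.0067 in *Trp53*-/-), a 1.43-fold decrease in wild-type and a 1.44-fold decrease in *Trp53*-/-. The SD between the 2 arrays was 0.30 in wild-type and 0.12 in *Trp53*-/-.

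The coding *Tpi1* probe, whose sequence is given above, read -0.28 and -0.64 in wild-type and -0.45 and -0.42 in *Trp53*-/-. Its means of -0.46 and -0.43 also passed (limma with Storey's *q* = 0.0074 and 0.010). The difference between genotypes was 0.003 for the first probe (95% interval -0.35 to 0.36) and -0.02 for the second (95% interval -0.35 to 0.30). Without wild-type replicate 2 the first probe read -0.31 in wild-type (*q* = 0.13), and without *Trp53*-/- replicate 1 it read -0.44 in *Trp53*-/- (*q* = 0.055). With the scanner software's own ratios the values were -0.48 and -0.49 and passed in neither genotype (*q* = 0.082 and 0.083).

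**Figure D2:**
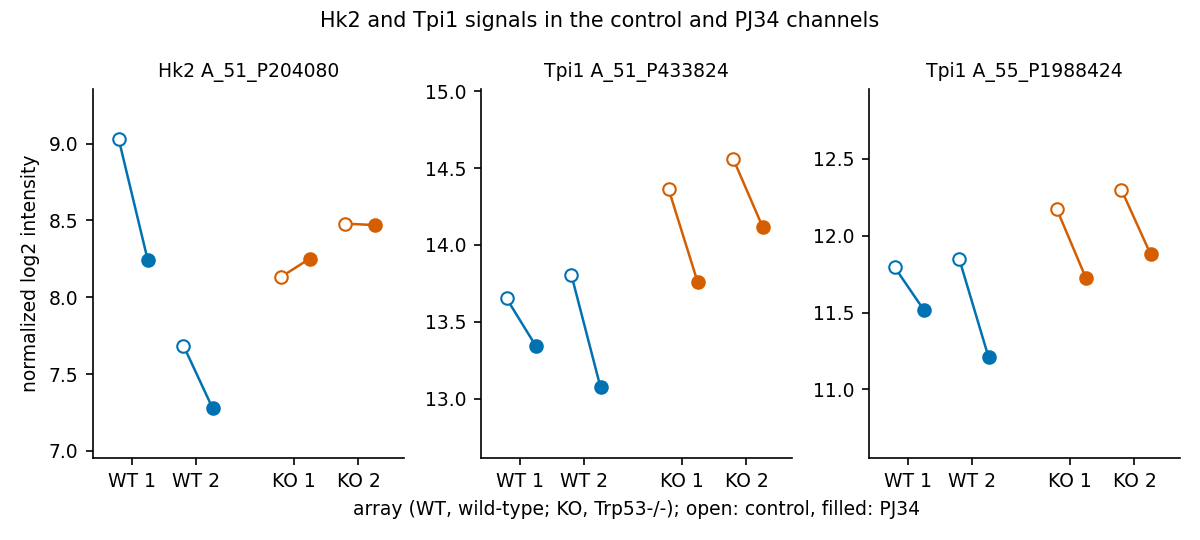
Normalized log2 intensity (y axis, each panel spanning the same number of log2 units) of Hk2 and of both Tpi1 probes in the control channel (open) and the PJ34 channel (filled) of each array, joined by a line. Hk2 drops on both wild-type arrays from control levels of 9.03 and 7.69, and Tpi1 drops on all 4 arrays from control levels that are higher in Trp53-/-.

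*Gapdh*, the NAD+-dependent dehydrogenase that is often used as a reference gene and served as one in the study's RT-PCR, was read by 8 probes. In wild-type, the means of the 8 ran from 0.02 to 0.19 and none passed. The arrays lay on opposite sides of 0, with replicate 1 between 0.21 and 0.42 and replicate 2 between -0.31 and -0.03. In *Trp53*-/- the means ran from 0.03 to 0.33. Only the brightest probe, A_55_P2097548, passed, with 0.29 and 0.37 on the 2 arrays and a mean of 0.33 ± 0.11 (mean of 2 arrays ± moderated SE, limma with Storey's *q* = 0.036), a 1.26-fold rise. The next probe, A_55_P2186027, which shares a run of 30 bases with it, read 0.30 and missed the threshold (*q* = 0.052).

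That *Gapdh* rise rests on little. The probe is placed on chromosome 7 (chr7:59003199-59003257) and not at *Gapdh* on chromosome 6, and no RefSeq transcript is listed for it. The other 7 probes list between 1 and 3 noncoding RefSeq transcripts beside coding ones, and A_55_P2037425 is placed on chromosome 8, so signal of *Gapdh* and of its near copies could not be told apart. The value did not pass without *Trp53*-/- replicate 1 (0.37, *q* = 0.093) or replicate 2 (0.29, *q* = 0.24), with an offset of 16, with the scanner's ratios, with Benjamini-Hochberg adjustment, or as the mean of the 8 probes (0.17, *q* = 0.17).

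*Pgk1*, which makes the first ATP of the pathway, gave log2 ratios of -0.07 and -0.28 on the wild-type arrays and -0.17 and 0.00 in *Trp53*-/-, with means of -0.17 and -0.08 that did not pass. Its probe is placed on chromosome 3 in the files, while RefSeq has *Pgk1* on chromosome X, so signal of a copy elsewhere cannot be told apart.

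*Ldha*, the lactate dehydrogenase subunit that favours the step from pyruvate to lactate, was below 0 in wild-type on all 3 probes and on both arrays. The brightest, A_55_P2012984, read -0.15 and -0.26 in wild-type and 0.03 and -0.02 in *Trp53*-/-. The coding probe A_55_P2141878 read -0.12 and -0.41 in wild-type, and A_55_P2141876 read -0.13 and -0.36. The wild-type means of -0.21, -0.27 and -0.25 had unadjusted *p* under the threshold but missed the adjusted one narrowly (limma with Storey's *q* = 0.074, 0.051 and 0.055), and the mean of the 3 probes, -0.24, passed. In *Trp53*-/- the means were 0.00, -0.15 and -0.12. The difference between genotypes was -0.21 for the brightest probe (95% interval -0.50 to 0.07) and did not pass (*q* = 0.37).

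Across the 10 genes the differences between genotypes in the response to PJ34 ran from -0.65 for *Hk2* to 0.16 for *Hk1*, with a median of -0.05 beside -0.01 for all genes. With 2 arrays a genotype the intervals were wide. Even for the brighter *Pfkp* probe, whose mean difference was -0.01, the interval was -0.31 to 0.28.

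The untreated cells of the genotypes were compared through the control channel, which held the same dye on all 4 arrays. Each array had a slide of its own, so the spread between slides is part of that between replicates and could not be fitted apart from it. No slide held both genotypes, so slide and genotype cannot be told apart. In bulk RNA, fewer cells of a type and less RNA per cell cannot be told apart, and the sex-linked transcripts given above differed between the same samples. Of the 10 genes, 8 had a higher value and 2 a lower one in *Trp53*-/-. *Tpi1* alone passed, as higher, where 3.38% of all genes were higher and 3.27% lower (6.65% in either direction), and 3 of the 10 had an unadjusted *p* under the threshold. None passed 2-fold, against 3.65% of all genes. The median difference of the 10 was 0.27, and that of all genes was -0.004. Counted by probe, 2 of 25 passed as higher and 0 as lower (3.12% and 2.91% of all probes, 6.03% in either direction).

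*Tpi1* had control log2 intensities of 13.65 and 13.80 in wild-type and 14.36 and 14.56 in *Trp53*-/-. The groups did not overlap. The difference was 0.73 (95% interval 0.31 to 1.15, limma with Storey's *q* = 0.049), or 1.66-fold. Its coding probe read 11.80 and 11.85 in wild-type and 12.18 and 12.30 in *Trp53*-/-, a difference of 0.42 that did not pass (*q* = 0.12).

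*Hk1* split by probe here too. A_55_P2027999 had 11.32 and 11.12 in wild-type and 12.14 and 11.88 in *Trp53*-/-, a difference of 0.79 (95% interval 0.34 to 1.23, limma with Storey's *q* = 0.048). The coding probe was also higher, by 0.52 (*q* = 0.090), but the brightest probe differed by -0.31 (95% interval -0.73 to 0.10), and the rule counted the gene by that one.

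*Pfkl* had control levels of 8.64 and 9.22 in wild-type and 9.53 and 9.84 in *Trp53*-/-, a difference of 0.76 (95% interval 0.16 to 1.35) that did not pass (*q* = 0.086). *Aldoa*, with 15.59 and 15.93 in wild-type and values near 16.26 on both *Trp53*-/- arrays, differed by 0.49 (*q* = 0.11). In both, the groups did not overlap. The 3 *Gpi1* probes differed by 0.37 to 0.49, *Pgk1* by 0.31 (*q* = 0.25), the brighter *Pfkp* probe by 0.01, and the *Ldha* probes by -0.003 to 0.24. The 8 *Gapdh* probes ranged from -0.38 to 0.60, so this gene had no single direction.

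The calls in untreated cells were the least stable. Without *Trp53*-/- replicate 1, *Tpi1* read 0.83 (*q* = 0.36), and without *Trp53*-/- replicate 2 it read 0.63 (*q* = 0.77). For the *Hk1* probe the values were 0.66 (*q* = 0.46) and 0.92 (*q* = 0.56). Without wild-type replicate 1, 5 of the 10 genes passed as higher and 0 as lower, and without wild-type replicate 2, 4 passed as higher and 2 as lower, in fits where 9363 of 27041 and 11728 of 27042 probes passed. No probe of the whole array passed without either *Trp53*-/- replicate, so a call lost there says nothing about a single gene. Only the size of the difference is given for such fits. In these fits a lone array was assumed to vary like the other genotype.

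**Figure D3:**
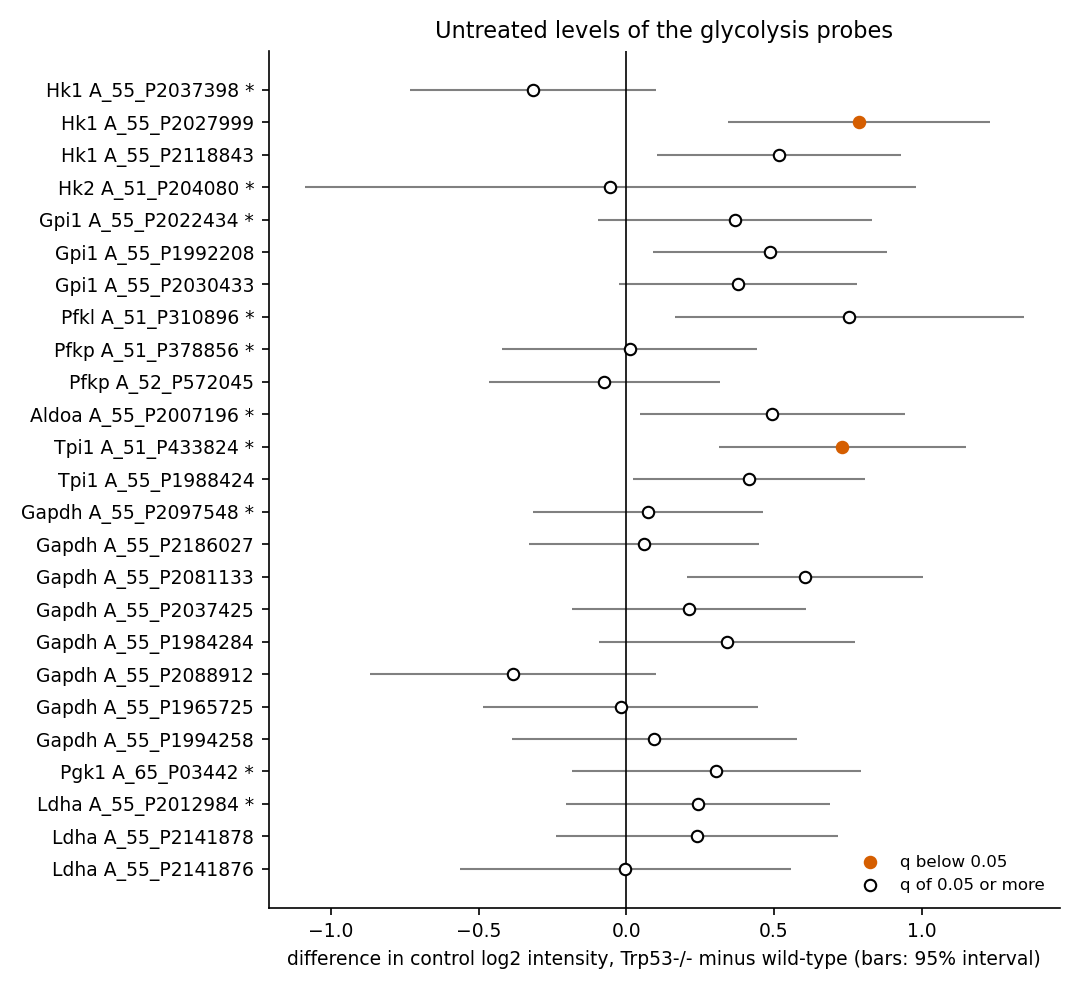
Difference in control log2 intensity, Trp53-/- minus wild-type (x axis), for each of the 25 probes, with 95% intervals from limma; filled points have a Storey q under the threshold and an asterisk marks the probe read for the gene counts. Of the 25 points 19 lie right of 0, the filled ones are a Hk1 probe at 0.79 and a Tpi1 probe at 0.73, and the Hk1 and Gapdh probes scatter on both sides.

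The other genes of glucose metabolism were read from lists of related genes, counted by the brightest probe. Of all genes, 13.2% rose and 10.8% fell with PJ34 in wild-type, and 12.3% rose and 10.2% fell in *Trp53*-/-. In untreated cells 3.38% were higher and 3.27% lower in *Trp53*-/-. The counts with PJ34 below are near those shares, and in lists this short no count is read as a result about a list. Of 17 other glycolytic enzymes 12 passed the filter. Leaving aside *Gapdhs*, 1 rose and 1 fell in wild-type, 0 rose and 1 fell in *Trp53*-/-, and untreated cells of *Trp53*-/- had 2 higher and 0 lower. In wild-type *Ldhb*, the subunit that favours the step from lactate to pyruvate, rose by 0.40 (log2 ratios 0.44 and 0.36, limma with Storey's *q* = 0.011). *Aldoc*, the brain aldolase, fell there by 0.40 (-0.58 and -0.23, *q* = 0.022). In *Trp53*-/-, *Ldhb* read -0.16 and *Aldoc* 0.12, and neither passed there or in the difference between genotypes. Without wild-type replicate 1, *Ldhb* read 0.36 (*q* = 0.094) and *Aldoc* -0.23 (*q* = 0.26). *Gapdhs*, the form of sperm, also met the threshold in both genotypes, but none of the 4 arrays had its control signal well above background. It entered the test only through the PJ34 channel of *Trp53*-/-, where it was high, so it is not counted and no fold is given.

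In *Trp53*-/-, *Eno2*, the neuronal enolase, fell by 0.61 (log2 ratios -0.59 and -0.62, limma with Storey's *q* = 0.0013), while it read 0.13 and 0.12 in wild-type. It was the 1 enzyme of this list that passed in the difference between genotypes, at 0.74 (*q* = 0.019), and its response was called with every single array left out. Its untreated level was also higher in *Trp53*-/-, by 1.57 (6.97 and 7.81 against 8.96 and 8.95, *q* = 0.030), as was that of *Pfkm*, the muscle phosphofructokinase, by 0.74 (*q* = 0.044). Without *Trp53*-/- replicate 1 and 2 the untreated differences read 1.56 and 1.57 for *Eno2* and 0.72 and 0.77 for *Pfkm*.

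Of 8 glucose and lactate transporters 7 passed the filter, not *Slc2a4*. PJ34 raised 1 and lowered 1 in wild-type and raised 0 and lowered 2 in *Trp53*-/-. *Slc2a1*, the main glucose transporter of proliferating cells, read 0.02 in wild-type and -0.15 in *Trp53*-/- and passed in neither. In wild-type, *Slc2a8* rose by 0.29 (*q* = 0.036, limma with Storey's *q*) and *Slc2a3*, the neuronal glucose transporter, fell by 0.28 (*q* = 0.029), calls lost without wild-type replicate 1 (0.16 and -0.30) and, for *Slc2a3*, also without replicate 2 (-0.26). In *Trp53*-/-, the lactate exporter *Slc16a3* fell by 0.53 (*q* = 0.017), from -0.16 on replicate 1 and -0.90 on replicate 2, and *Slc16a7* fell by 0.30 (*q* = 0.039). Without *Trp53*-/- replicate 2 they read -0.16 and -0.19 and were not called, and without replicate 1 *Slc16a7* read -0.41 and was not called.

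*Slc16a3* also showed the widest untreated difference among the genes of these metabolic lists. Its control log2 intensities were 7.11 and 6.90 in wild-type and 9.27 and 9.36 in *Trp53*-/-, a difference of 2.31 (95% interval 1.90 to 2.72, limma with Storey's *q* = 0.0074), or 4.96-fold. Without *Trp53*-/- replicate 1 and 2 it read 2.35 and 2.27.

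Of 11 regulators of the flux, 10 passed the filter, not *Fbp2*. In wild-type 2 met the threshold as higher and 1 as lower, and in *Trp53*-/- 0 as higher and 1 as lower. These counts include *Mlxipl* and *Fbp1*, whose calls are limited by the filter as given below. *Tigar*, a p53 target that lowers fructose 2,6-bisphosphate, read -0.17 in wild-type and -0.02 in *Trp53*-/- and passed in neither. *Fbp1*, which runs the phosphofructokinase step backwards, met the threshold in both genotypes, lower by a fitted -0.60 in wild-type (-0.54 and -0.66, limma with Storey's *q* = 0.0010) and -0.40 in *Trp53*-/- (-0.46 and -0.35, *q* = 0.0086). Its PJ34 signal was well above background on 1 of 2 arrays in each genotype and its control signal on both. It therefore entered the test through the channel where it was high, and its call is no evidence of a decrease. The *Trp53*-/- value was -0.35 (*q* = 0.088) without replicate 1. *Pfkfb2* was higher with PJ34 in wild-type, by 0.28 (limma with Storey's *q* = 0.035), and read 0.36 and 0.20 without wild-type replicate 1 and 2. *Mlxipl* also met the threshold there, at a fitted 0.29 (*q* = 0.041), and read 0.14 without wild-type replicate 1. The control signals of both were well above background on 1 of the 2 wild-type arrays. *Mlxipl*, with 1 of 2 in *Trp53*-/- too, entered the test only through the PJ34 channel, where it was high. The *Mlxipl* call is therefore no evidence of a rise. In untreated cells, *Pfkfb3*, which makes fructose 2,6-bisphosphate, and *Txnip*, which holds back glucose uptake, were higher in *Trp53*-/- by 1.25 (*q* = 0.017) and 0.88 (*q* = 0.033). Without *Trp53*-/- replicate 1 and 2 the differences read 1.21 and 1.28 for *Pfkfb3* and 0.99 and 0.77 for *Txnip*. The control signal of *Txnip* was well above background on 1 of the 2 wild-type arrays.

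Of 12 genes for the entry of pyruvate into mitochondria, 11 passed the filter, not *Pdk4*, and of these 2 rose and 0 fell in wild-type and 2 rose and 0 fell in *Trp53*-/-. *Pdk3*, a kinase that shuts off pyruvate dehydrogenase, rose by 0.43 in wild-type and 0.40 in *Trp53*-/- (limma with Storey's *q* = 0.0054 and 0.0086), and the phosphatase *Pdp1*, which switches it on, rose by 0.66 in *Trp53*-/- (0.84 and 0.48, *q* = 0.0021). *Mpc1*, a subunit of the mitochondrial pyruvate carrier, rose by 0.35 in wild-type (*q* = 0.017). *Pdk3* read 0.42 (*q* = 0.051) without wild-type replicate 1 and 0.33 (*q* = 0.15) without *Trp53*-/- replicate 2, and *Mpc1* 0.23 (*q* = 0.23) without wild-type replicate 2. In untreated cells *Pdk1* was higher in *Trp53*-/- by 1.19 (6.95 and 6.81 against 8.01 and 8.13, *q* = 0.020), with 1.26 and 1.13 without *Trp53*-/- replicate 1 and 2.

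All 7 genes of the pentose phosphate pathway, which branches from glucose 6-phosphate, passed the filter, of which 0 rose and 2 fell in wild-type and 0 rose and 1 fell in *Trp53*-/-. *Rpia*, ribose 5-phosphate isomerase, fell by 0.81 in wild-type (-0.91 and -0.70, limma with Storey's *q* = 0.00037) and read 0.04 in *Trp53*-/- (-0.06 and 0.15), and the difference of -0.85 passed (*q* = 0.016). *Tkt*, transketolase, fell in both genotypes, by 0.33 and 0.28 (*q* = 0.027 and 0.047), with -0.16 (*q* = 0.35) without wild-type replicate 2 and -0.27 (*q* = 0.18) or -0.30 (*q* = 0.22) without *Trp53*-/- replicate 1 or 2. No gene of this pathway passed in untreated cells.

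**Figure D4:**
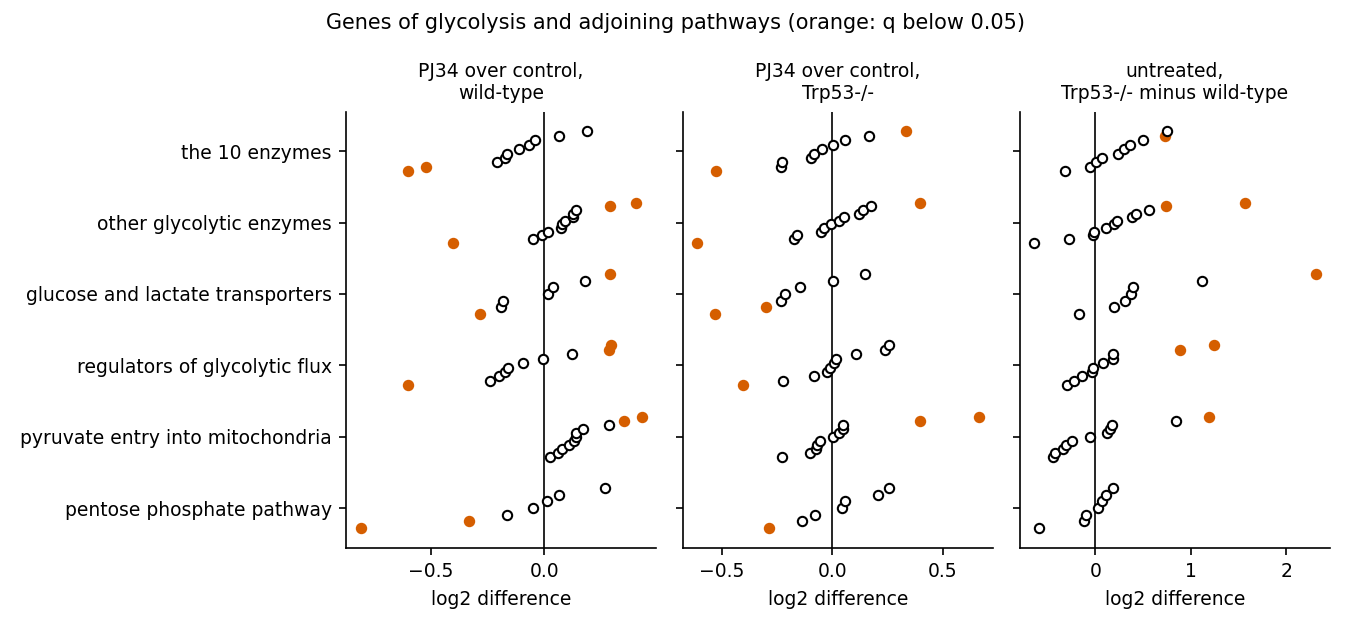
Log2 difference (x axis) of each gene that passed the filter, by its brightest probe, for the 10 enzymes and 5 lists of related genes, with PJ34 over control in wild-type and in Trp53-/- and the untreated difference in separate panels; each point is a gene and orange points have a Storey q under the threshold. Responses to PJ34 lie between -0.81 and 0.66, and the largest untreated difference is Slc16a3 at 2.31.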

How the data were processed

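RNA of PJ34-treated (Cy5) and control (Cy3) NSPCs was hybridized to 4 Agilent SurePrint G3 Mouse GE arrays, 2 per genotype. The authors extracted the spots with Agilent Feature Extraction 10.7.3.1, per the submitters' processing notes. The deposited intensity values used here are mean spot and median local background brightness, uncorrected. The deposited log10 ratios and processed intensities, which that software background-subtracted and dye-normalized, served as an alternative after conversion to log2. A deposited table of 4 numbered columns was not used, because no column could be matched to an array by name.

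Intensities were corrected by normexp (offset 50) and loess in limma 3.58.1 (R 4.3.3), without control spots and the 228 to 276 outlier spots per array, and repeated spots were averaged by probe. Probes stayed in when a channel (at least 1) stood well above background on both arrays of a genotype (at least 1). Per array and channel, 21505 to 27156 probes did so, and 0 spots were saturated. The number of arrays limits the precision. Untreated levels are control log2 intensities after quantile normalization of the mean intensities. limma was fitted over all 4 arrays (10.5 degrees of freedom for ratios and 6.18 for levels after moderation), with Storey's *q* over all kept probes. Calls needed *p* and *q* under 0.05, with 2-fold as a stricter rule. Genes were counted by their brightest kept probe. Bounds on folds set a dim group, per array, at its own signal or the lowest signal among well measured probes, whichever is higher, and are open to dye bias, as are all ratios here. The fit was tested on simulated data.

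Named were all 10 enzymes and, per comparison and list, up to 3 rises and 3 decreases that passed, with *Tigar*, *Slc2a1*, *Trp53* and 3 sex-linked genes. The enzymes and lists were chosen with earlier results of these data known, and marker lists were used only as a check. Positions are mm9, per the file headers. Alternatives were other background corrections, normalizations, filters, adjustments, probe rules, a replicate block, and leaving out each array.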

Additional observations from a re-analysis of the deposited data

Results flagged for a closer look

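*Eno2* and *Rpia* responded to PJ34 differently in the genotypes by the test of the difference itself. For *Eno2* the log2 difference, wild-type minus *Trp53*-/-, was 0.74 (95% interval 0.46 to 1.01, limma with Storey's *q* = 0.019), with 0.13 and 0.12 in wild-type and -0.59 and -0.62 in *Trp53*-/-. For *Rpia* it was -0.85 (95% interval -1.16 to -0.54, *q* = 0.016), with -0.91 and -0.70 in wild-type and -0.06 and 0.15 in *Trp53*-/-. Both passed with every single array left out, and neither passed with an offset of 16 (0.84 and -0.98), with median centring (0.42 and -1.04) or with the scanner software's ratios (0.91 and -1.18). With the scanner's ratios no probe of the whole array passed in this difference. Beside the *Eno2* result, the summed intensity of the 6 oligodendrocyte markers was 9326 and 9999 in the control and 5371 and 6388 in the PJ34 channel of the *Trp53*-/- arrays, and 2175 and 3538 in the control and 2082 and 3043 in the PJ34 channel of the wild-type arrays. With PJ34, 3 of these markers passed as lower in *Trp53*-/- and 1 in wild-type, where 10.2% and 10.8% of all genes did. In the difference between genotypes all 6 were above 0 and 1 passed, the same direction as *Eno2*. Of 6 neuron markers, 4 had a higher and 2 a lower value with PJ34 in *Trp53*-/-, and 1 passed as higher and 0 as lower. In the difference 5 of the neuron markers were above 0 and 1 below, and 0 passed. Of 5 astrocyte markers, 3 passed as higher and 1 as lower with PJ34 in *Trp53*-/-. In the difference 2 of the astrocyte markers were above 0 and 3 below, and 1 passed as higher. The part of other cell types was not tested.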

How the results depend on the processing

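Under median centring instead of loess, the enzymes counted as higher were 7 in wild-type and 10 in *Trp53*-/-, those lower were 0 in both, and 1 and 4 passed 2-fold, while 15125 and 17669 of all 27042 probes passed. Values that turned from below to above 0 there and passed under at least 1 of these normalizations were, in wild-type, *Gpi1* 0.74, 0.76 and 0.74, *Hk1* 0.77, *Ldha* 0.61, 0.40 and 0.45, *Pfkl* 0.38, *Pgk1* 0.59, *Tpi1* 0.20 and 0.19, *Aldoc* 0.37, *Slc2a3* 0.17, *Tkt* 0.42 and *Tigar* 0.42. In *Trp53*-/- they were *Gpi1* 1.04, 1.10 and 1.01, *Hk1* 0.92, *Ldha* 0.77 and 0.86, *Pfkl* 0.54, *Pfkp* 0.44, *Pgk1* 0.99, *Tpi1* 0.52 and 0.48, *Eno2* 0.065, *Slc16a3* 0.19, *Slc2a1* 0.66, *Tkt* 0.78 and *Tigar* 0.79. The cause was not tested. With the scanner software's values 1 enzyme was lower in wild-type and 0 in *Trp53*-/-, and 0 were higher in *Trp53*-/- or untreated. The higher count in *Trp53*-/- was also 0 with an offset of 16, Benjamini-Hochberg and the mean of a gene's probes. In the difference between genotypes 1 enzyme (*Hk2*) was lower with no filter, a strict filter, RefSeq probes only (chosen after seeing the data), the replicate block, and unadjusted *p*. In untreated cells the higher count was 0 with no background correction, an offset of 16, no filter, a strict filter, Benjamini-Hochberg and probe means, 2 with RefSeq probes and 3 with unadjusted *p*.

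The labels do not say whether same-numbered arrays were prepared together. Their deviations correlated at -0.17 for ratios and 0.07 for control levels. Of all probes, 395 passed in the difference without a block, 471 with the replicate block and 1224 with the numbers crossed. No pairing of arrays is read from these values. With the replicate block 1 enzyme was lower in the difference and 2 higher in untreated cells. With the numbers crossed (chosen after seeing the data) 2 were lower in *Trp53*-/-, 1 lower in the difference and 0 higher in untreated cells. Leaving out 1 array gave 0 to 1 higher and 0 to 1 lower in *Trp53*-/-, 1 to 2 lower in wild-type, 0 to 1 lower in the difference, and in untreated cells 0 to 5 higher, 0 to 2 lower and 0 to 1 past 2-fold. Untreated *Hk2* turned to 0.62 without wild-type replicate 1 and read -0.73 without wild-type replicate 2. Of the values under the alternatives, 2089 kept their direction and side of the threshold or changed sign without passing in either setting (105), 138 lost their call, 90 gained one and 32 reversed. Ratios of probes near background are compressed by the offset.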
